A study of Mus musculus with 4 samples.

Results

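The 10 genes described here carry out the MHC class II pathway of antigen presentation: H2-Aa, H2-Ab1, H2-Eb1, Cd74, H2-DMa, H2-DMb1, H2-DMb2, H2-Oa, Ciita and Ctss. They were found by gene name in the annotation column of the arrays, and make up 10 of 27606 gene names, with 16 probes on 25 spots. RNA of mouse alveolar type II (AT-II) cells, the surfactant-producing epithelial cells of the lung, was measured after sorting by flow cytometry from dissociated lungs. The 4 groups were Tlr3-/- mice with a tumor, Tlr3-/- mice without a tumor, wild-type (WT) mice with a tumor and WT mice without a tumor. Tumor-bearing mice carried a subcutaneous Lewis lung carcinoma, a transplantable mouse lung tumor line, and lungs were taken 2 weeks after inoculation. All samples are labelled female, and mouse age, the background strain, the gate of the sort and any pooling of mice are not given in the sources used here. Each group was 1 array, so no difference below has a replicate check and no test between groups was possible. The question was how a tumor at a distant site alters the RNA of these lung cells, with and without Tlr3, a receptor for double-stranded RNA.

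MHC class II molecules are pairs of an alpha and a beta chain that show peptides from the endosome to CD4 T cells. The chains assemble on the invariant chain Cd74, which cathepsin S (Ctss) trims, and H2-DM then exchanges the remaining fragment for a peptide while H2-DO restrains H2-DM. Ciita is the coactivator that switches on class II promoters. Dendritic cells, macrophages and B cells are the professional antigen-presenting cells, and AT-II cells are an epithelial cell type known to carry class II without them.

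Class II promoters are recognised by their X and Y boxes, which lie at a nearly fixed distance from each other. The stretches below show that arrangement upstream of 5 of the 7 genes that had a promoter window. They include H2-DMb2 and H2-Oa, which had the largest tumor differences among the H2 genes in Tlr3-/- mice and have only bounds in WT mice. The windows of H2-DMa and Ctss, which were also at least 2-fold higher with tumor in Tlr3-/- mice, do not hold it. Sequences are from RefSeq (GRCm38.p6), 5′ to 3′ on the strand of the gene. Capitals mark the letters AAC near the end of the X box and TGATTGG, which holds the Y box.
H2-Aa: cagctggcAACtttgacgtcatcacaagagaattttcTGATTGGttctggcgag
H2-Eb1: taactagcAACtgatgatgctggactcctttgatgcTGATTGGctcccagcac
H2-DMb1: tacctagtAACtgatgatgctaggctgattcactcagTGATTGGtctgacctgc
H2-DMb2: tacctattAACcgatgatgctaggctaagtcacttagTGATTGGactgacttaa
H2-Oa: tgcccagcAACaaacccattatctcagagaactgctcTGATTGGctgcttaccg

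The H2-Aa stretch lies at chr17:34287857-34287910 on the minus strand. The others are on the plus strand, at chr17:34305770-34305822 for H2-Eb1, chr17:34153091-34153144 for H2-DMb1, chr17:34145120-34145173 for H2-DMb2 and chr17:34092297-34092350 for H2-Oa. Between AAC and TGATTGG lie 25 bases in H2-Eb1 and 26 in the others. The pattern AAC, 25 or 26 bases, TGATTGG was chosen after these windows were read, so the members' own matches say nothing by themselves. On either strand it is in 83 of the 32851 promoter windows of 300 bases in the table (0.253%). The Y box core ATTGG alone is in 37.4% of the windows and in those of 6 member genes, and CCTNGNNAC is in 15.8% and in those of Ctss and H2-DMb1. Promoter windows were matched for 7 members. The windows of H2-DMb1 and H2-DMb2, paralogs that encode the beta chain of H2-DM, are identical at 210 of 258 aligned bases. Nothing measured here bears on binding at these sites.

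The library-wide measurements touch the members in several ways. The 75th percentile of the signal was 904 in Tlr3-/- mice with tumor and 758 without, and 796 in WT mice with tumor and 555 without, and no spot was saturated. Each comparison below sets arrays from different slides against each other, since Tlr3-/- with tumor was on the third slide, WT with tumor and Tlr3-/- without tumor on the second, and WT without tumor on the first. Slide and group therefore cannot be told apart. All 17 AT-II markers, among them Sftpc and Abca3, were well above background on all 4 arrays. The Tlr3 probes were lower on the Tlr3-/- arrays: one probe stood at -5.30 log2 with tumor and -5.45 without, against -3.94 and -3.93 in WT. That probe was not well above background on the Tlr3-/- array without tumor, and both Tlr3 probes were still above it on the Tlr3-/- array with tumor. The Tlr3-/- array without tumor goes against its label of female, since 4 of 4 Y-linked genes were above background on it and on no other array, and Xist stood at -4.05 there against 3.80 to 4.05 elsewhere. The array labelled Tlr3-/- without tumor enters the Tlr3-/- tumor comparison, the genotype comparison without tumor and the difference of the tumor changes between genotypes, which cannot be made without it. The WT tumor comparison and the genotype comparison with tumor do not use it.

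All levels below are log2 signals relative to the 75th percentile of their own array, so a difference of 1 is 2-fold, and levels of different probes are not set against each other. The error is technical only. The scanner's error model gives a standard error of 0.20 for the log2 difference of a bright spot between 2 arrays. Probes spotted 5 or more times on each array had a standard deviation of the log2 difference of 0.109 in the Tlr3-/- tumor comparison and 0.287 in the WT one. In the WT comparison this was 0.356 over spots in array columns 1 to 51 and 0.0992 over those in columns 52 to 85. Of the 16 member probes, 13 lie in columns 1 to 51, 2 lie in columns 52 to 85 and 1 has spots in both.

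In Tlr3-/- mice all 10 genes were higher on the array with tumor, with log2 differences of 0.34 to 3.03 and a median of 0.72, against -0.01 over all genes with a value. Ctss, H2-DMb2, H2-Oa and H2-DMa were at least 2-fold higher, 4 of 10, where 4.5% of all genes tested were 2-fold higher. In WT mice 7 of the 8 members above background on both arrays were higher with tumor, with a median of 0.37 against 0.00 over all genes. H2-DMb2 and H2-Oa have only bounds there, and a bound against the array without tumor can only be above 0. Over all 10 the median was 0.44, and Ctss alone passed 2-fold, against 5.64% of all genes tested. Across the probes above background on both arrays, 15 of 15 were higher with tumor in Tlr3-/- mice, 14 of them by more than 2 scanner standard errors. In WT mice 11 of 13 were higher, 5 of them by more than 2 such errors. The share of all probes past that limit was not computed, and probes of 1 gene are not independent. In columns 1 to 51, where most member probes lie, the log2 differences of WT replicate spots had a standard deviation of 0.356. That is more than the scanner's 0.20, so the scanner error understates the technical error there. The plot of levels by array shows the arrays in each gene.

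**Figure D1:**
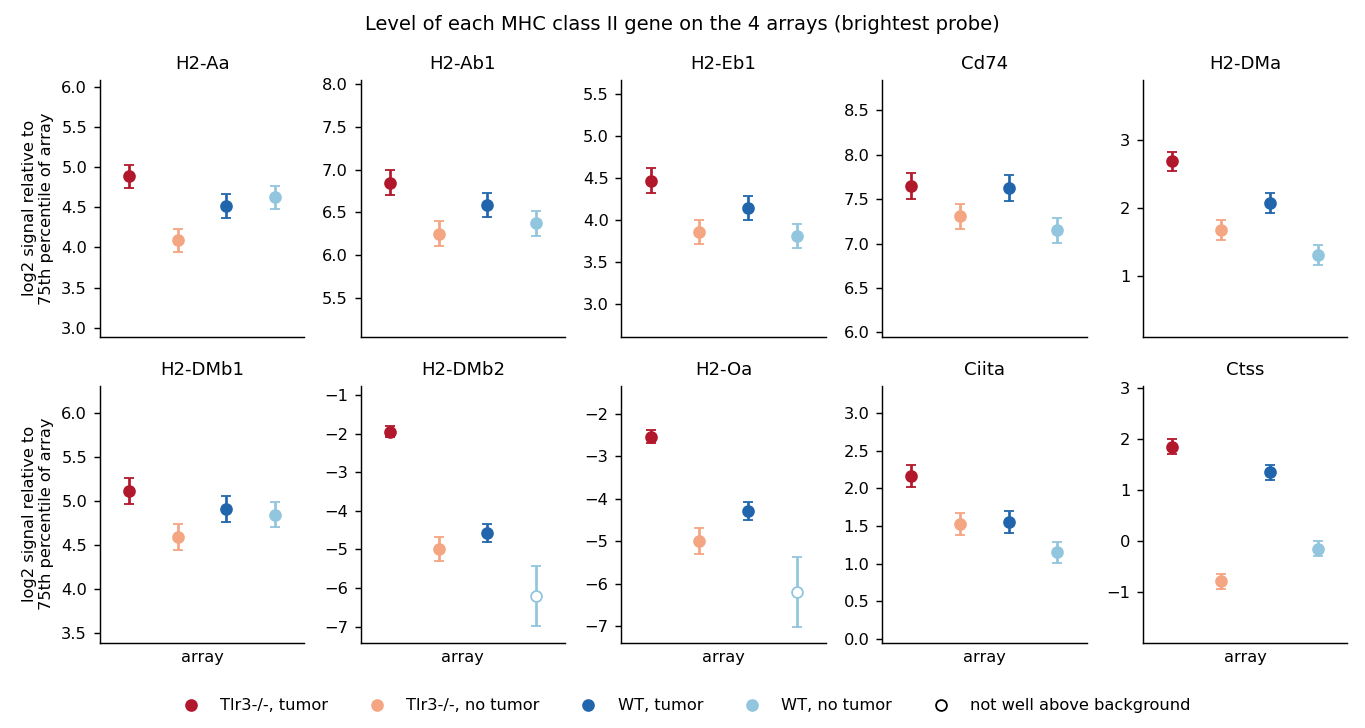
Level of each of the 10 genes at its brightest probe on each array, as log2 signal relative to the 75th percentile of the array (y axis, a separate range in each panel), for Tlr3-/- with tumor, Tlr3-/- without tumor, WT with tumor and WT without tumor, from left to right. Bars are the scanner's standard error and open circles are not well above background; the Tlr3-/- array with tumor is the highest of the 4 in every panel, with Cd74 at 7.65 there and 7.62 in WT mice with tumor.

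H2-Aa, H2-Ab1 and H2-Eb1 encode chains of the class II molecules I-A and I-E that bind the peptide. H2-Ab1 stood at 6.85 with tumor and 6.25 without in Tlr3-/- mice, and at 6.59 with tumor and 6.37 without in WT mice, at the probe that represents the gene. The difference was 0.60 in Tlr3-/- mice and 0.21 in WT mice, so only the Tlr3-/- difference exceeded 2 scanner standard errors. H2-Eb1 stood at 4.47 with tumor and 3.86 without in Tlr3-/- mice, and at 4.15 with tumor and 3.81 without in WT mice, differences of 0.62 and 0.33. The gene-name column calls this probe H2-Eb1, while its description names an I-A beta sequence. Its identity rests on the gene name and on its position, chr17:34452050-34452511 in mm9. The H2-Ab1 probe that represents that gene lies elsewhere, at chr17:34406059-34406118.

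H2-Aa, the I-A alpha chain, stood at 4.88 with tumor and 4.09 without in Tlr3-/- mice, and at 4.52 with tumor and 4.63 without in WT mice. The differences were 0.80 in Tlr3-/- mice and -0.11 in WT mice. Its second probe read 4.62 with tumor and 3.92 without in Tlr3-/- mice, and 4.28 with tumor and 3.50 without in WT mice, differences of 0.70 and 0.79. Both probes were close in Tlr3-/- mice, and in WT mice they disagreed in sign. With each spot centred on its 100 nearest spots, an alternative chosen after the data were seen, the WT difference of the first probe was 0.09.

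The H2-Ab1 probes likewise spread further apart in WT than in Tlr3-/- mice. Probe A_51_P215237 (chr17:34404388-34404447 in mm9) was spotted 10 times on each array. Its tumor difference was 0.83 ± 0.05 in Tlr3-/- mice and 0.06 ± 0.20 in WT mice (mean ± SD over 10 spots of 1 array pair, which are not biological replicates). In WT mice the 6 spots in columns 52 to 85 gave 0.20 ± 0.05, and the 4 in columns 1 to 51 gave -0.16 ± 0.11. The largest WT spot difference, 0.27, is below the smallest Tlr3-/- one, 0.73. Between genotypes with tumor the same spots differed by 0.55 ± 0.02, higher in Tlr3-/- mice.

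**Figure D2:**
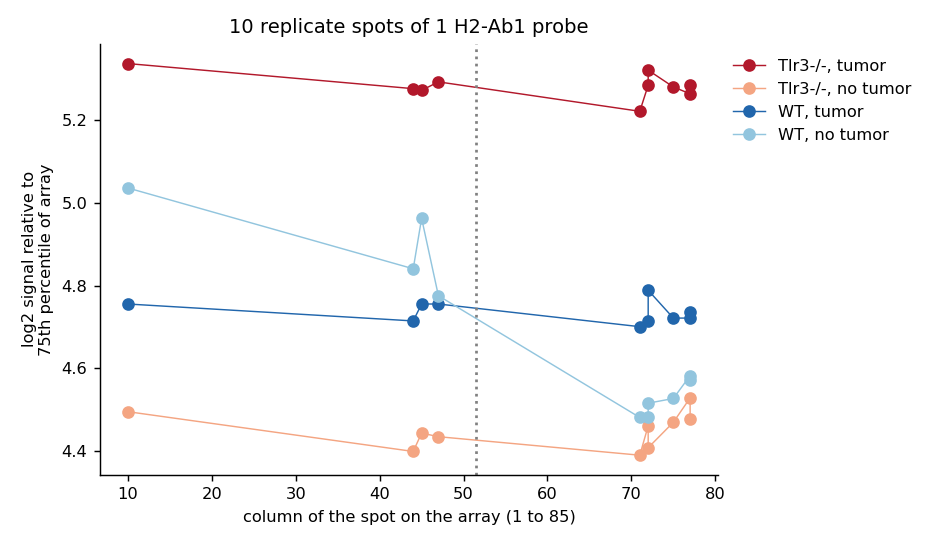
Log2 signal relative to the 75th percentile of the array (y axis) at each of the 10 replicate spots of H2-Ab1 probe A_51_P215237, by array column (x axis), 1 line per array; the dotted line parts columns 1 to 51 from 52 to 85. The Tlr3-/- array with tumor is highest at every spot, and the WT array without tumor is above the WT array with tumor in columns 1 to 51 and below it in columns 52 to 85.

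A pair of H2-Ab1 probes overlap each other and differ in sequence, which is why they are shown, with the replicate-spot probe and the H2-Eb1 probe beside them. Capitals mark the bases at which the overlapping pair differ.
A_51_P215242: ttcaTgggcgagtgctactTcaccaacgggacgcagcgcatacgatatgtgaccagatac
A_52_P570717: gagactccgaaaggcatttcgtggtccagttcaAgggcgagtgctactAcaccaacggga
A_51_P215237: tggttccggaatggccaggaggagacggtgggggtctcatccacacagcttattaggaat
A_51_P393226 (H2-Eb1): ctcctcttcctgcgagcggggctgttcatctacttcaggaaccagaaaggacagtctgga
The pair overlap over 31 bases and are identical at 29 of them. The changes are T5A and T20A, with positions counted from 1 at the 5′ end of A_51_P215242, whose base comes first. A_51_P215242 lies at chr17:34401723-34401782 in mm9, and the files give no position for A_52_P570717.

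A_51_P215242 stood at 4.47 with tumor and 3.60 without in Tlr3-/- mice, and at 3.80 with tumor and 3.93 without in WT mice. A_52_P570717 stood at 3.29 with tumor and 2.35 without in Tlr3-/- mice, and at 2.49 with tumor and 1.71 without in WT mice. Their tumor differences were therefore 0.87 and 0.93 in Tlr3-/- mice, and -0.13 and 0.79 in WT mice. In Tlr3-/- mice the probes of the gene lay between 0.60 and 0.93, and in WT mice they spread from -0.13 to 0.79.

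Cd74, the invariant chain that chaperones class II molecules, stood at 7.65 with tumor and 7.31 without in Tlr3-/- mice, and at 7.62 with tumor and 7.15 without in WT mice. The differences of 0.34 and 0.47 were near each other, and the difference between them, -0.14, was smaller than its scanner error of 0.29.

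H2-DMa and H2-DMb1 encode the alpha and beta chains of the peptide editor H2-DM. H2-DMa stood at 2.68 with tumor and 1.67 without in Tlr3-/- mice, and at 2.07 with tumor and 1.30 without in WT mice, differences of 1.01 and 0.77. The first lies just past 2-fold, and it was 0.91 with normexp background correction and 0.96 with the local centring. H2-DMb1 stood at 5.12 with tumor and 4.59 without in Tlr3-/- mice, and at 4.91 with tumor and 4.85 without in WT mice, differences of 0.52 and 0.06. Its other probe gave 0.83 and 0.22.

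H2-DMb2, the other beta chain gene of H2-DM, and H2-Oa, the alpha chain of the H2-DM inhibitor H2-DO, were dim. H2-DMb2 read 234 intensity units with tumor and 24.0 without in Tlr3-/- mice, and 33.6 with tumor and 7.47, not well above background, without in WT mice. It was 8.18-fold higher with tumor in Tlr3-/- mice (log2 3.03, scanner error 0.34) and at least 1.60-fold in WT mice. H2-Oa read 156 intensity units with tumor and 23.7 without in Tlr3-/- mice, and 40.9 with tumor and 7.64, not well above background, without in WT mice. It was 5.52-fold higher with tumor in Tlr3-/- mice (log2 2.46, scanner error 0.34) and at least 1.95-fold in WT mice. With normexp background correction the Tlr3-/- differences were 1.51 for H2-DMb2 and 1.68 for H2-Oa on the log2 scale. A bound sets the brighter array against the lowest signal called well above background on the dimmer one. The second H2-Oa probe was not well above background on either array without tumor, and gave at least 8.75-fold in Tlr3-/- mice and at least 2.19-fold in WT mice. H2-Ob, which encodes the beta chain of H2-DO, was not well above background on any array.

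Ciita stood at 2.17 with tumor and 1.52 without in Tlr3-/- mice, and at 1.56 with tumor and 1.15 without in WT mice, differences of 0.64 and 0.41. Ctss stood at 1.85 with tumor and -0.80 without in Tlr3-/- mice, and at 1.34 with tumor and -0.16 without in WT mice. It was 6.25-fold higher with tumor in Tlr3-/- mice and 2.83-fold higher in WT mice, each well beyond the scanner error. No other member was past 2-fold in both genotypes at its representing probe.

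**Figure D3:**
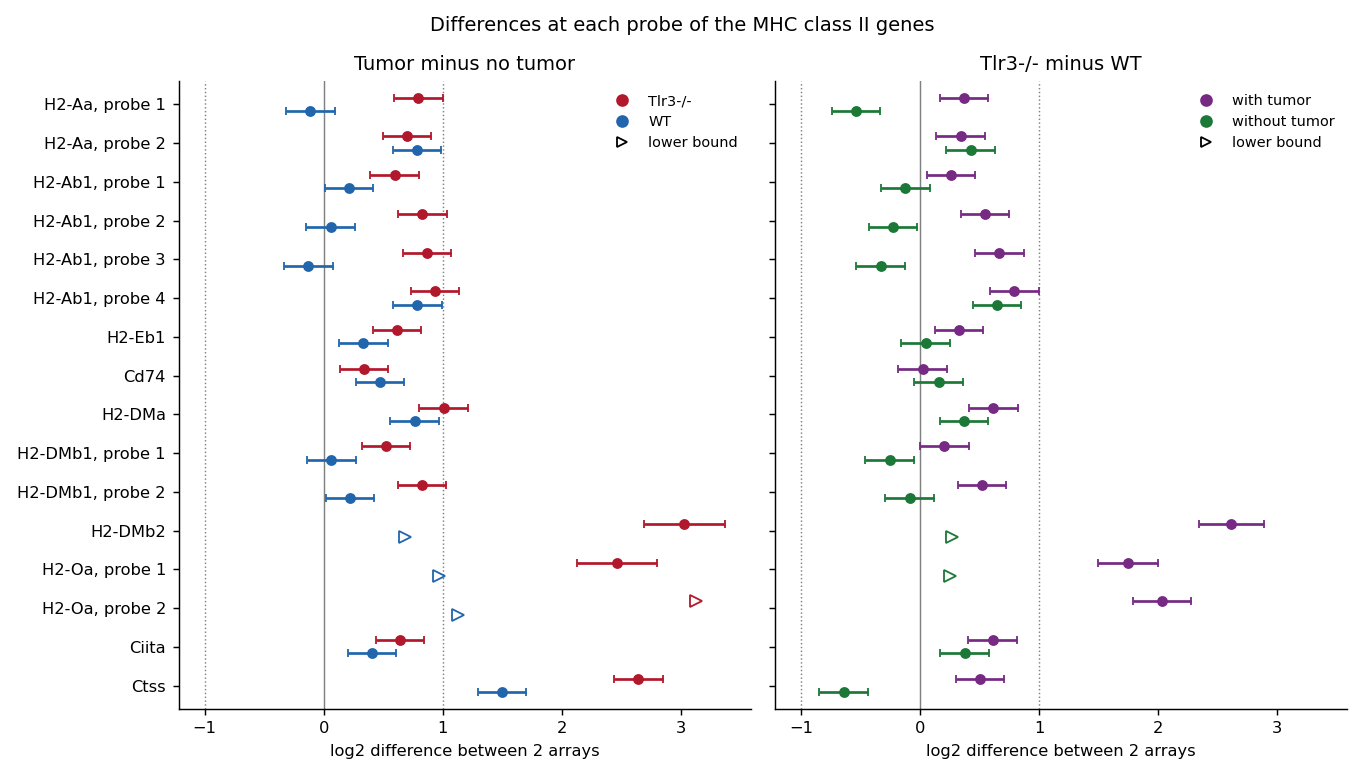
Log2 difference between 2 arrays (x axis) at each of the 16 member probes (rows, from class II chains to Ctss), tumor minus no tumor on the left (Tlr3-/- and WT) and Tlr3-/- minus WT on the right (with tumor and without tumor). Bars are scanner standard errors, open triangles are lower bounds and dotted lines mark 2-fold; in Tlr3-/- mice the measured tumor differences run from 0.34 to 3.03, all above 0.

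This comparison uses all 4 arrays, among them the Tlr3-/- array that goes against its label. It also rests on the WT tumor difference, whose replicate spots had a standard deviation of 0.356 in columns 1 to 51. The scanner errors given here therefore understate the technical error for probes in those columns. The tumor difference was larger in Tlr3-/- than in WT mice for 7 of the 8 members measured on all 4 arrays, with a median of 0.33 between the differences, against 0.02 over all genes. Ctss was past 2-fold (1.14, scanner error 0.29), 1 of 8, where 2.12% of all genes tested were 2-fold higher in Tlr3-/- mice. H2-Aa (0.91) came next, and its second probe gave -0.08. Cd74 was the exception, at -0.14. H2-DMb2 and H2-Oa have no value, since WT mice without tumor were not well above background.

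With tumor, all 10 members were higher in Tlr3-/- than in WT mice, by 0.02 for Cd74 to 2.62 for H2-DMb2, with a median of 0.44 against -0.05 over all genes. H2-DMb2 was 6.13-fold higher and H2-Oa 3.36-fold higher, 2 of 10 past 2-fold, where 2.89% of all genes tested were. The other H2-Oa probe gave 4.10-fold. All 16 probes were above 0, and 10 of them by more than 2 scanner standard errors, again without a share over all probes to set beside it. Ciita (0.61), H2-DMa (0.62) and Ctss (0.50) differed by more than 2 scanner standard errors. At their representing probes H2-Aa (0.37), H2-Eb1 (0.33), H2-Ab1 (0.26), H2-DMb1 (0.20) and Cd74 (0.02) did not. The other H2-Ab1 probes gave 0.55, 0.67 and 0.79 and the other H2-DMb1 probe 0.52, each past that limit. The second H2-Aa probe gave 0.34, which was not.

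Without tumor, no member was 2-fold different between Tlr3-/- and WT mice, where 5.87% of all genes tested were 2-fold higher and 2.34% were 2-fold lower. Over the 8 members above background on both arrays the median was -0.04, as over all genes, and 4 of 8 were above 0. With the bounds of H2-DMb2 and H2-Oa, which can only be above 0 here, the median was 0.10. Of 13 probes above background on both arrays, 6 were above 0. Ctss (-0.64) and H2-Aa (-0.54, with 0.43 at its second probe) had the lowest values. These differences rest on the WT array without tumor, whose replicate spots varied by position.

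Of the 41 other pathway genes on the array, 36 were tested in the Tlr3-/- tumor comparison and 35 in the WT one. Those past 2-fold and higher in tumor-bearing mice numbered 2 in Tlr3-/- mice and 4 in WT mice, where 4.5% and 5.64% of all genes tested were. The counts of marker genes in the tumor comparisons below stand beside the same shares. Marchf1, a ubiquitin ligase that removes class II from the surface, was higher in both genotypes, by at least 1.45 and at least 1.04 on the log2 scale. Cxcr2, a chemokine receptor that binds the Cd74 ligand Mif, was higher by at least 1.57 and at least 2.22, and it is also a neutrophil marker. Ctsc, a lysosomal protease, and Cd274, the checkpoint ligand PD-L1, differed by 0.03 and 0.88 in Tlr3-/- mice and by 1.16 and 1.04 in WT mice. None of the 7 factors that bind class II promoters passed 2-fold, with values from -0.35 to 0.53 in Tlr3-/- mice and -0.46 to 0.23 in WT mice. None of the 8 genes of interferon-gamma signaling, which induces Ciita, had a value past 2-fold either. Irf1, a transcription factor of this pathway, differed by 0.17 in Tlr3-/- mice and 0.36 in WT mice. Ifng itself was well above background on the Tlr3-/- array with tumor only. Its Tlr3-/- difference, at least 0.17, is therefore a bound and may be larger, and it has no value in WT mice. H2-Eb2 was above background on the Tlr3-/- array with tumor only, and the class II pseudogene H2-Ea-ps on none. No other pathway gene passed 2-fold between genotypes with or without tumor.

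The pan-leukocyte and neutrophil markers were all higher with tumor in both genotypes. The other leukocyte lists, given below, each also held genes that were lower with tumor in Tlr3-/- mice, WT mice or both. All 5 pan-leukocyte genes were past 2-fold and higher in tumor-bearing mice of each genotype, with Ptprc (CD45) at 3.24 in Tlr3-/- mice and 2.68 in WT mice. Their summed level, in units of the 75th percentile, was 4.37 with tumor and 0.524 without in Tlr3-/- mice, and 4.54 with tumor and 0.604 without in WT mice. Of 11 neutrophil markers, 10 were past 2-fold in the same direction in each genotype. Between genotypes with tumor, where all 10 members were higher in Tlr3-/- mice, the pan-leukocyte genes had a median of -0.02 with none past 2-fold, and the neutrophil markers a median of -0.62. The neutrophil markers Mpo (2.69) and Ltf (-1.52) passed 2-fold there in opposite directions. Also past 2-fold and higher in Tlr3-/- mice were the plasma cell markers Jchain (4.52) and Mzb1 (1.03), the B cell marker Fcer2a (1.60) and the monocyte marker Ccr2 (1.01). Of all genes tested, 2.89% were 2-fold higher in this comparison. The NK cell marker Klrb1c was lower (-1.58), and alveolar macrophage markers are given below. All 17 AT-II markers stayed within 2-fold in every comparison. In bulk RNA, a change in the share of a cell type and a change in RNA per cell cannot be told apart.

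Of 11 dendritic cell markers, 8 were tested in each pair. Tumor-bearing mice exceeded 2-fold at 3 in the Tlr3-/- pair and 2 in the WT pair, with Itgax at 2.77 and 1.26. Above 0 were 7 in the Tlr3-/- pair and 6 in the WT pair, bounds included, with a median of 0.48 in each. Zbtb46 differed by 0.18 and -0.24, and Xcr1 by 0.04 and -0.10. Siglech was above background on the Tlr3-/- array without tumor only, and Flt3 on the WT array with tumor only. Their summed level was 0.967 with tumor and 0.562 without in Tlr3-/- mice, and 0.864 with tumor and 0.632 without in WT mice. Clec9a and Cd209a were not well above background on any array. Of 10 B cell markers, 8 were tested in Tlr3-/- mice and 6 in WT mice, and 2 and 1 of these were past 2-fold and higher with tumor. Ms4a1 (CD20) was above background on the arrays with tumor only, Fcer2a differed by 3.16 in Tlr3-/- mice and 0.86 in WT mice, and Pax5 and Blk were not well above background on any array. The summed level of the B cell list was 9.13 with tumor and 5.38 without in Tlr3-/- mice, and 7.64 with tumor and 6.30 without in WT mice. Cd79b made up 88.1% to 95.5% of these sums, and without it they were 1.08 with tumor and 0.271 without in Tlr3-/- mice, and 0.520 with tumor and 0.287 without in WT mice.

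Among 9 alveolar macrophage markers, tumor-bearing mice exceeded 2-fold at 4 of 8 tested in the Tlr3-/- pair and 1 of 7 in the WT pair. With tumor, 3 of 8 tested were 2-fold higher in Tlr3-/- than in WT mice: Marco (1.65), Chil3 (1.75) and Krt79 (at least 2.23). Of all genes tested, 2.89% were. Of the 8, 7 were above 0, Fabp4 at 0.04 among them, and Pparg was at -0.50. The summed level was 12.3 with tumor and 4.42 without in Tlr3-/- mice, and 5.19 with tumor and 5.57 without in WT mice, with Siglecf not well above background on any array. Without Chil3, which made up 46.6% to 76.7% of it, the sum was 2.87 with tumor and 2.36 without in Tlr3-/- mice, and 2.37 with tumor and 2.23 without in WT mice. Of 11 monocyte and other macrophage markers, 10 were tested in each pair. Past 2-fold and higher with tumor were 3 in Tlr3-/- mice and 4 in WT mice, while Csf1r differed by -0.78 and -0.90. The summed level was 95.9 with tumor and 67.8 without in Tlr3-/- mice, and 76.5 with tumor and 57.4 without in WT mice. Ly6c2 made up 95.7% to 97.3% of these sums, and without it they were 2.60 with tumor and 2.67 without in Tlr3-/- mice, and 2.22 with tumor and 2.45 without in WT mice. Of 7 plasma cell markers, 6 were tested in Tlr3-/- mice and 5 in WT mice. Past 2-fold were 2 in Tlr3-/- mice, Jchain (7.36) and Mzb1 (1.83), and 1 in WT mice, Jchain (1.57), with list medians of 0.48 and 0.50. Sdc1 differed by -0.26 and -0.23, and Irf4 was not well above background on any array. The summed level was 35.0 with tumor and 26.8 without in Tlr3-/- mice, and 24.7 with tumor and 25.9 without in WT mice. Sdc1 made up 52.4% to 86.9% of these sums. Without it they were 16.7 with tumor and 4.76 without in Tlr3-/- mice, and 5.53 with tumor and 3.40 without in WT mice. Of 9 T and NK cell markers, 6 were tested in each pair, and 2 exceeded 2-fold in the Tlr3-/- pair and 1 in the WT pair. None of 6 endothelial markers did. The part of these cells in the members' differences was not tested.

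**Figure D4:**
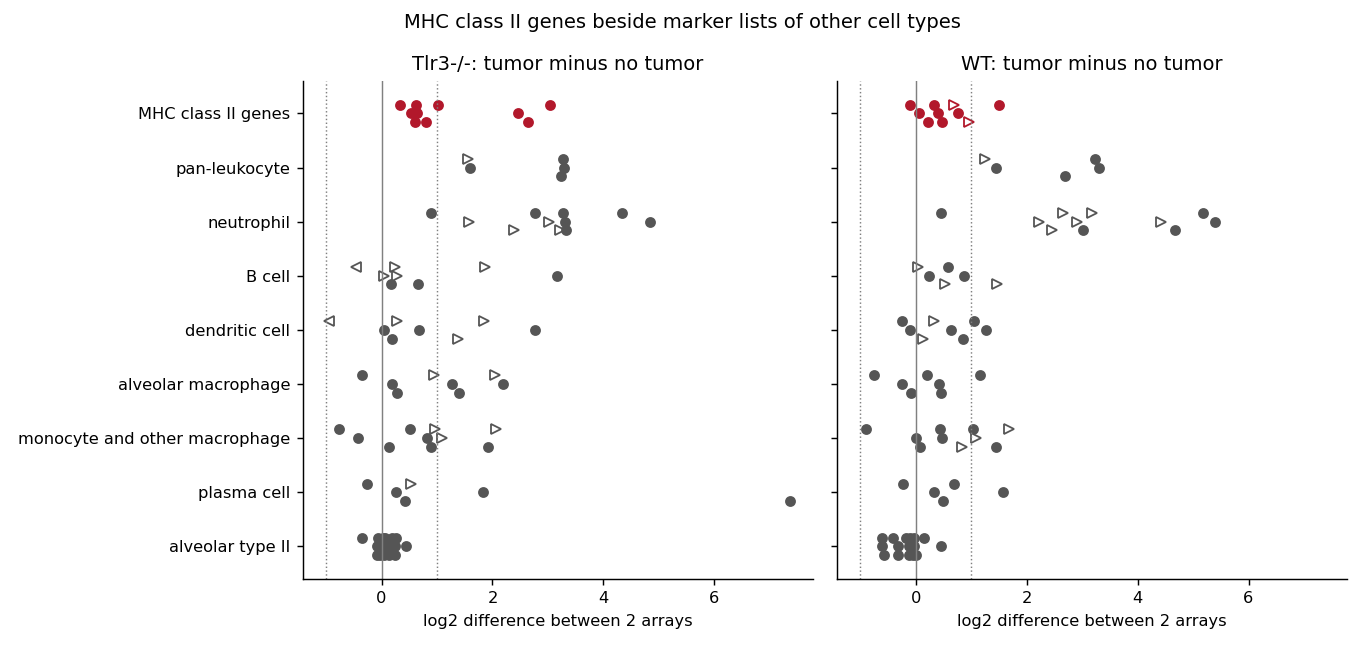
Log2 difference, tumor minus no tumor (x axis), of each gene in the MHC class II genes (top row) and in marker lists of other cell types, in Tlr3-/- mice (left) and WT mice (right); circles are measured on both arrays, open triangles are bounds and dotted lines mark 2-fold. The pan-leukocyte genes all lie past 2-fold in both panels, and all 17 alveolar type II genes lie within it.

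The genes most like the members were sought among 15760 genes above background on all 4 arrays, by the root mean square distance between values centred on their own mean. Nearest to the mean profile of H2-Aa, H2-Ab1, H2-Eb1 and Cd74 were Pqlc3 (0.00590), Gm2a (0.0121), 2210408F21Rik (0.0129), Hsf4 (0.0148) and the unnamed probe A_52_P948927 (0.0153). That profile had a range of only 0.586 over the arrays. Its distances are smaller than the replicate-spot standard deviations of 0.109 and 0.287 in the Tlr3-/- and WT tumor comparisons. The choice and order of these genes are therefore uncertain. Nearest to H2-DMb2 were Ighg3 (0.231), an immunoglobulin heavy chain constant region gene, H2-Q5 (0.441), Mpo (0.477) and Gbp8 (0.497). H2-DMb2 itself was not well above background in WT mice without tumor, so its lowest point is uncertain and these distances carry that error. With 4 arrays such a match is a description and carries no test.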

How the data were processed

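RNA from sorted AT-II cells was hybridised to 1-colour Agilent arrays (design 014868), 4 in all. The deposited files hold processed signal intensity per spot, and per the file headers the scans were quantified in Feature Extraction 10.7.3.1, with probe positions in mm9. The authors' deposited value table holds log2 values of the same arrays, and its scaling and centring are not stated. The members and gene lists were chosen with earlier results of these data known.

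Outlier spots were left out, intensities were put on a log2 scale minus the 75th percentile of each array over gene spots, spots of a probe were averaged, and the brightest probe stood for a gene. A gene was tested where a probe was well above background on either array and called at 2-fold, and where only 1 array was above background the difference is a bound. Array number limits the precision. Named are all members at every probe, listed genes past 2-fold with a few others of each list, and the 5 genes nearest to each of 2 profiles, apart from items that are not reported here. The alternatives were normexp with offset 50 (limma 3.58.1), quantile normalization, median centring, probe means, 2 filters on dim probes, the value table, array columns 52 to 85 and, added after the data were seen, local centring. The procedure was tested on simulated data.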

Additional observations from a re-analysis of the deposited data

How the results depend on the processing

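Of 380 member values recomputed under another setting, 12 crossed 2-fold, 10 of them upward, and 37 moved by more than the spread of replicate spots, 16 of them with normexp. A change of sign was seen in 14, none larger than 0.28 as reported, among them H2-Aa and H2-DMb1 in the WT tumor comparison. In the WT tumor comparison the members' median of 0.44 became 0.87 with normexp and 0.14 in columns 52 to 85, where 2 members remain. The number past 2-fold there, 1, became 3 with normexp (Cd74 1.03 and Ciita 1.02), 2 with probe means (H2-Oa 1.05), 3 without a filter on dim probes, 3 in the value table (H2-DMb2 1.28 and H2-Oa 1.55) and 0 in columns 52 to 85. In the Tlr3-/- tumor comparison the median of 0.72 became 0.56 in columns 52 to 85, and the 4 genes past 2-fold became 2 with genes above background on all 4 arrays, since H2-DMb2 and H2-Oa were then not tested, and 0 in columns 52 to 85. Between genotypes without tumor the median of 0.10 became -0.04 with genes above background on all 4 arrays, -0.19 in columns 52 to 85 and -0.02 with local centring, and 2 genes passed 2-fold without a filter on dim probes. With tumor the median became 0.23 in columns 52 to 85, and the 2 genes past 2-fold became 0 both there and with genes above background on all 4 arrays. For the difference of the tumor changes, 1 gene past 2-fold became 2 with median centring (H2-Aa 1.05), 2 without the filter and 0 in columns 52 to 85. Beyond the smaller sets of genes, the cause was not tested. Median centring put the median of all genes at -0.15 in the WT tumor comparison and at 0.16 for the difference of the tumor changes, and normexp put it at -0.13 in the WT tumor comparison, so the values under these settings are to be read against those medians. Local centring moved H2-DMa to 0.96 in Tlr3-/- mice and changed no other call. No paired analysis was possible because each group holds 1 array, and for the same reason no replicate could be left out. H2-DMb2 and H2-Oa were dim, with the largest scanner errors of the members.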
